A study of Mus musculus with 9 samples.

Results

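The genes described are the Fc receptor genes Fcgr1, Fcgr2b, Fcgr3, Fcgr4, Fcer1g, Fcer1a and Ms4a2, taken by gene symbol from a table of 54146 genes. All 7 were found, each in 1 row, and 6 of them passed the filter on low counts that 15886 genes passed. Fcer1a did not pass and was given by its counts only. RNA was sequenced from eosinophils sorted out of mouse quadriceps muscle as live CD45+ SiglecF+ cells that were CD11c-, Gr1- and MHCII-. There were 3 groups of 3 libraries from adult mice: IL5Tg mice, which carry an interleukin-5 transgene, mdx mice, which lack functional dystrophin and develop muscular dystrophy, and mdx_IL5Tg mice, which have both. The strain label reads mdx for all 9 libraries, the IL5Tg group included, so the groups were taken from the sample titles. The promoter that drives the transgene, the number of mice per library and the genetic background are not stated in the labels. The series describes the replicates as biological. Libraries are named by the numbers of the table's columns: S7, S8 and S9 are IL5Tg, S1, S2 and S3 are mdx_IL5Tg, and S4, S5 and S6 are mdx.

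Fc receptors bind the constant part of antibodies and pass that contact into the cell. The activating receptors for IgG in the mouse are FcγRI (Fcgr1), FcγRIII (Fcgr3) and FcγRIV (Fcgr4), and all of them rely on the common γ chain encoded by Fcer1g, whose ITAM motif recruits the kinase Syk after phosphorylation by Src family kinases such as Lyn. FcγRIIB (Fcgr2b) is the inhibitory receptor: its cytoplasmic ITIM recruits the phosphatase SHIP-1 (Inpp5d). The high-affinity IgE receptor of mast cells and basophils is built from the α chain (Fcer1a), the β chain (Ms4a2) and the γ chain, and mouse eosinophils are generally held to lack it.

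Library totals ranged from 26752780 to 58368283 counts. In CPM, counts scaled to the library total with TMM factors, Il5 was between 317 and 724 in the 6 libraries with the transgene and between 0.265 and 0.402 in the 3 mdx libraries. The eosinophil markers Siglecf (129 to 584 CPM) and Ccr3 (809 to 1441 CPM) were present in every library. The summed level of 12 eosinophil markers was 7353 to 17210 CPM in IL5Tg, 7231 to 7898 in mdx_IL5Tg and 3367 to 4041 in mdx. Of these markers, 6 were lower in mdx than in IL5Tg, where 8.96% of all genes tested were lower. These were Siglecf, Prg2, Ear2, Ear6, Ear1 and Epx (log2 -1.17, -4.06, -5.29, -4.92, -5.25 and -4.32). Prg2 was at 6997, 1611 and 2690 CPM in IL5Tg and at 79.3, 96.1 and 503 CPM in mdx. Not called in that comparison were Adgre1, Alox15 and Cebpe (-0.41, -0.60 and -0.15) and Ccr3, Gata1 and Il5ra (0.07, 0.03 and 0.02). Against mdx_IL5Tg, 4 markers were lower in mdx, where 10.1% of all genes were lower. The 6 were 2 without S4 and 1 in a fit of only the groups compared, and the 4 were 8 without S6, 7 in DESeq2 and 9 in voom. Markers of other cells were present too. The summed level of 15 macrophage markers was 242 to 268 CPM in IL5Tg, 370 to 511 in mdx_IL5Tg and 711 to 1201 in mdx. That of 12 dendritic cell markers was 63.1 to 68.9, 222 to 383 and 295 to 385 CPM, although MHCII+ and CD11c+ cells had been gated out. That of 9 monocyte markers was 806 to 1160, 1069 to 1263 and 629 to 752 CPM, and that of 12 neutrophil markers 537 to 1429, 312 to 434 and 238 to 578 CPM. B and plasma cell markers summed to 41.7 CPM at most and NK cell markers to 7.07 CPM. Single genes made up a large part of several sums. Csf1r of the macrophage list averaged 206, 329 and 395 CPM in IL5Tg, mdx_IL5Tg and mdx. In the same order, Itgax of the dendritic cell list averaged 47.0, 231 and 120.5 CPM. Plac8 of the monocyte list averaged 389.5, 726 and 335 CPM. Library S5 had the lowest share of mitochondrial counts, 0.383% against 1.28% to 2.29% in the others. In these bulk libraries a lower level may come from fewer cells of a type or from less RNA per cell, and these cannot be told apart.

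The stretch below is shown because it is the longest run of bases that the Fcgr2b and Fcgr3 transcripts have in common, and reads from it fit both genes. In the GENCODE M21 annotation of GRCm38, the build the submitters' processing notes call mm10, it covers the end of exon 3 and the start of exon 4 in both, and all 129 bases are coding. On the minus strand its ends lie at chr1:170966674-170968081 in Fcgr2b and at chr1:171054167-171057792 in Fcgr3.

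Fcgr2b and Fcgr3, shared coding stretch: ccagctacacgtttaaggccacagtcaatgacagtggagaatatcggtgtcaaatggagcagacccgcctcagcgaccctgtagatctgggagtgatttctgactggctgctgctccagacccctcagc

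Of all windows of 50 bases along the Fcgr3 transcript, 12.8% also occur in an Fcgr2b transcript, and of windows of 100 bases 3.53%. RSEM, which made the counts, divides reads that fit several genes by estimate, so the split between these neighbours is partly an estimate. The percentages are shares of windows and not of reads. Fcgr3 had more counts than Fcgr2b in every library (49629 against 7179 in S1). Reads shared by the 2 genes can therefore weigh more in the Fcgr2b counts than in those of Fcgr3. The part of the Fcgr2b level that depends on the split was not tested.

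The RefSeq promoters (GRCm38.p6, 250 bases before and 50 after the start) of 4 members are printed as examples of the roles in the family: Fcgr3 (chr1:171059354-171059653) and Fcgr2b (chr1:170976022-170976321), the neighbouring activating and inhibitory receptors, the high-affinity IgG receptor gene Fcgr1 (chr3:96293920-96294219) and the IgE receptor β chain gene Ms4a2 (chr19:11623670-11623969), all on the minus strand. Capitals mark matches on either strand to GAGGAA, the core of sites bound by the myeloid factor PU.1, to TTCNNNGAA, the form bound by STAT factors, and to GATAA, the core bound by GATA factors.

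Fcgr3: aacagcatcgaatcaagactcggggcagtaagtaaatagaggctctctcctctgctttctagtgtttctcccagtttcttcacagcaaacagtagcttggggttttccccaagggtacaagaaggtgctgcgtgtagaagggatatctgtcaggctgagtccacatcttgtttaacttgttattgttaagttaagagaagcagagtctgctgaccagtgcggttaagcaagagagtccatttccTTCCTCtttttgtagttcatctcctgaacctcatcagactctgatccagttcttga

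Fcgr2b: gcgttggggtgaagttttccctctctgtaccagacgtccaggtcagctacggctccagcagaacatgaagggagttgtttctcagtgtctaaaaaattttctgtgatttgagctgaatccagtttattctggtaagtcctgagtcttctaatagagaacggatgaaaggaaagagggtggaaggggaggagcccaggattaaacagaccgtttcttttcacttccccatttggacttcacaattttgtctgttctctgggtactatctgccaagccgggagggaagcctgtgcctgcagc

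Fcgr1: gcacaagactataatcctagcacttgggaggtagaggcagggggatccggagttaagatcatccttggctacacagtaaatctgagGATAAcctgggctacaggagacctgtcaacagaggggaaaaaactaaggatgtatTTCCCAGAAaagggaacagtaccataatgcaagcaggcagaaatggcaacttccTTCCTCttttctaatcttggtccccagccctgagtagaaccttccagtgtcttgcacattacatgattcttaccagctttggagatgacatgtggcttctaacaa

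Ms4a2: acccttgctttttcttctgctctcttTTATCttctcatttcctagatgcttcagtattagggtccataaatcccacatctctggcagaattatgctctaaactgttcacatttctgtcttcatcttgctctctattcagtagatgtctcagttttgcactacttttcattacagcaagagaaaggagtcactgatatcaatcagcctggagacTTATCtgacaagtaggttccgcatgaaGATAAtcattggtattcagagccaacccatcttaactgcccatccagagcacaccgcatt

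The Fcgr1 promoter holds 1 match to each of the 3 motifs, with the STAT form beginning 109 bases before the start. The promoters of Fcgr3 and Fcgr4 hold 1 match to GAGGAA, that of Ms4a2 holds 3 matches to GATAA, and that of Fcer1a 1 match to GAGGAA and 1 to GATAA. None of the 3 motifs was matched in the windows of Fcgr2b and Fcer1g. These letters are common: of 32851 promoters of the same length, 28.3% hold GAGGAA, 8.3% TTCNNNGAA and 25.4% GATAA. They are 3 of 7 motifs that were searched; the other 4 (TTCCNGGAA, the repeat bound by interferon regulatory factors, CANNTG and TATAAA, held by 1.15%, 3.44%, 72.3% and 13.6% of promoters) are not marked. A match is a description of the sequence and not evidence of binding. All 7 members matched a RefSeq entry; Fcgr3 has entries for more than one start, and the first listed is shown.

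Per length, Fcgr3 had the highest level of the 7 genes in every group and Fcer1g the next highest. In RPKM, counts scaled to exon length and library total (mean ± SD, n = 3), Fcgr3 was 252 ± 16.8 in IL5Tg, 526 ± 44.4 in mdx_IL5Tg and 287 ± 89.9 in mdx. Fcer1g was 117 ± 7.47, 149 ± 4.69 and 108 ± 22.0 RPKM in the same order. Fcgr2b followed at 38.7 ± 5.13, 25.9 ± 1.25 and 24.1 ± 5.45 RPKM. The libraries of these 3 genes did not overlap with one another in any group. Fcgr4 was far lower, at 2.31 ± 0.370, 5.26 ± 0.154 and 2.78 ± 1.38 RPKM. Fcgr1 was at 0.232 ± 0.0508 RPKM in IL5Tg, 0.943 ± 0.182 in mdx_IL5Tg and 4.46 ± 2.98 in mdx, so it lay below Fcgr4 in both groups with the transgene, while in mdx the ranges of the 2 genes overlapped. Ms4a2 (0.375 ± 0.350, 0.0237 ± 0.0153 and 0.0627 ± 0.0644 RPKM) and Fcer1a (0.0678 ± 0.0324, 0.0520 ± 0.0694 and 0.0360 ± 0.0432 RPKM) were the lowest, except that the ranges of Ms4a2 and Fcgr1 overlapped in IL5Tg.

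**Figure D1:**
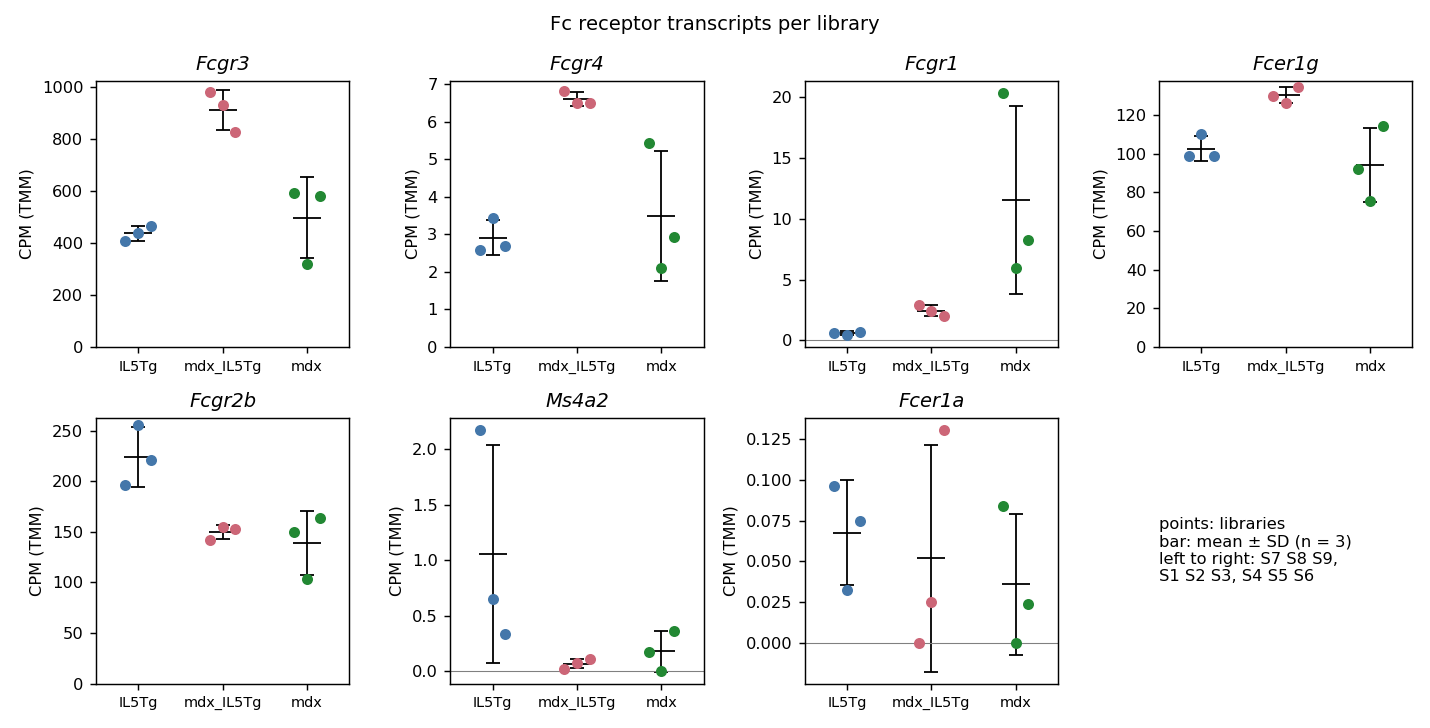
Each panel plots 1 Fc receptor gene in normalised CPM (vertical axis, linear and scaled per gene) for the 3 libraries of each group, with bars for the mean and SD. Fcgr3 is highest in the 3 mdx_IL5Tg libraries (829 to 980 CPM), Fcgr1 in the 3 mdx libraries (5.99 to 20.4 CPM) and Fcgr2b in the 3 IL5Tg libraries (196 to 255 CPM).

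Against IL5Tg, the mdx_IL5Tg libraries had more Fcgr3 and Fcgr1 and less Ms4a2. That is 2 of the 6 tested members higher, where 4.35% of all genes tested were higher, and 1 lower, where 2.87% were lower (edgeR quasi-likelihood test, adjusted p under 0.05). Against mdx_IL5Tg, the mdx libraries had more Fcgr1 and less Fcgr3 and Fcer1g. So 1 member was higher against a background of 11.5% and 2 were lower against 10.1%. Against IL5Tg, the mdx libraries had more Fcgr1 and less Fcgr2b, 1 member each way against backgrounds of 11.8% and 8.96%. Each group enters 2 of these comparisons, so they are not independent of one another. The first comparison depended on single libraries: 0 members were called without S7, S1 or S2, 1 without S8 or S9, and 5 without S5. DESeq2 called 5 members in place of 3.

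**Figure D2:**
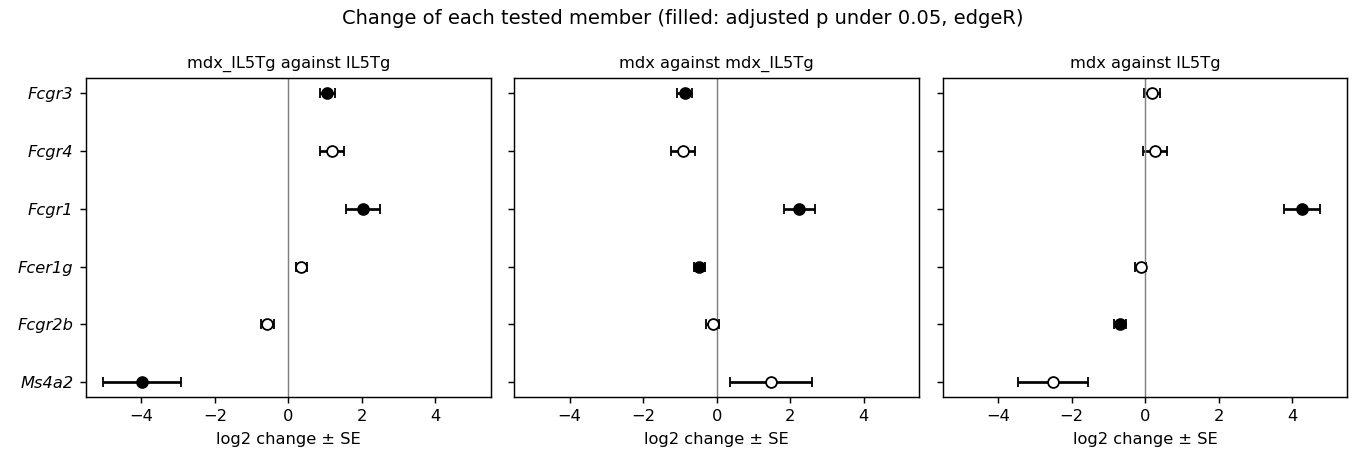
Log2 change of each tested member with its SE (horizontal axis) in the 3 comparisons, filled where the adjusted p was under 0.05. Fcgr1 is to the right of 0 in every panel (2.02, 2.24 and 4.26), while Fcgr3 is at 1.06, -0.87 and 0.19.

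Fcgr3, the activating low-affinity IgG receptor, was highest where dystrophy and the transgene were combined. It was at 407, 440 and 465 CPM in IL5Tg, at 980, 930 and 829 CPM in mdx_IL5Tg, and at 593, 318 and 583 CPM in mdx. All 3 mdx_IL5Tg libraries lay above the other 6, and the mdx libraries surrounded those of IL5Tg, with S5 the lowest of all. Fcgr3 was 2.09-fold higher in mdx_IL5Tg than in IL5Tg (log2 1.06, SE 0.21, edgeR adjusted p = 0.023). It fell by 0.87 on the log2 scale in mdx against mdx_IL5Tg (SE 0.21, edgeR adjusted p = 0.016). The change from IL5Tg to mdx was 0.19 (SE 0.21, edgeR adjusted p = 0.55; interval of 2 SE from -0.24 to 0.61), and it passed the test at 0.43 without S5 (edgeR adjusted p = 0.043). The first call was lost without S7, S1 or S2 (edgeR adjusted p = 0.062, 0.09 and 0.052), at log2 changes of 1.06, 1.06 and 1.09, and both calls were lost when library totals alone were used for scaling (0.85, edgeR adjusted p = 0.052, and -0.54, edgeR adjusted p = 0.11).

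Fcgr4, the activating receptor best known from monocytes and neutrophils, had the same order of groups at a much lower level. Its libraries were at 2.59, 3.44 and 2.68 CPM in IL5Tg, 6.83, 6.50 and 6.50 CPM in mdx_IL5Tg, and 5.44, 2.11 and 2.92 CPM in mdx. The mdx_IL5Tg libraries were close together and above the other 6. The difference from IL5Tg was 1.18 (log2, SE 0.33) and just missed the threshold (edgeR adjusted p = 0.052). That of mdx from mdx_IL5Tg was -0.91 (SE 0.32, edgeR adjusted p = 0.064). DESeq2 called both (1.18, adjusted p = 0.0075, and -0.96, adjusted p = 0.02). The edgeR test called the first without S3, S4 or S5 (1.25, 1.23 and 1.19, edgeR adjusted p = 0.045, 0.026 and 0.018). It called the second without S4 (-1.47, edgeR adjusted p = 0.01), S7 or S8 (-1.02 in both, edgeR adjusted p = 0.049 and 0.045). The difference of mdx from IL5Tg was 0.27 (SE 0.33, edgeR adjusted p = 0.58) and became -0.24 without S4.

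Fcer1g, the γ chain that all these activating receptors need at the cell surface, varied far less than Fcgr3. It was at 99.0, 110 and 98.7 CPM in IL5Tg, 130, 126 and 135 CPM in mdx_IL5Tg, and 92.2, 75.7 and 114 CPM in mdx. The 3 mdx_IL5Tg libraries were again the highest, and mdx spanned the IL5Tg values. Fcer1g fell by 0.47 on the log2 scale in mdx against mdx_IL5Tg (SE 0.15, edgeR adjusted p = 0.045). This call was lost without S1 (edgeR adjusted p = 0.069), S3 (0.053), S4 (0.072) or S5 (0.07), with changes between -0.57 and -0.34, and with library totals alone the change was -0.14 (edgeR adjusted p = 0.53). The rise from IL5Tg to mdx_IL5Tg was 0.34 (SE 0.15, edgeR adjusted p = 0.16), and mdx differed from IL5Tg by -0.13 (SE 0.15, edgeR adjusted p = 0.57; interval of 2 SE from -0.43 to 0.17). The count of Fcgr3 per count of Fcer1g was 4.11, 3.997 and 4.71 in IL5Tg, 7.54, 7.36 and 6.16 in mdx_IL5Tg, and 6.44, 4.20 and 5.11 in mdx. In this ratio, chosen after the values were seen, mdx_IL5Tg lay above IL5Tg without overlap, and mdx overlapped with both.

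Fcgr1, the high-affinity IgG receptor and a gene known to be induced by interferon-γ in macrophages, differed between all groups. It was at 0.640, 0.454 and 0.708 CPM in IL5Tg (20, 14 and 19 counts), at 2.92, 2.42 and 1.98 CPM in mdx_IL5Tg, and at 20.4, 5.99 and 8.30 CPM in mdx. No group overlapped with another and S4 was the highest library. Fcgr1 was 4.07-fold higher in mdx_IL5Tg than in IL5Tg (log2 2.02, SE 0.46, edgeR adjusted p = 0.032). It was 4.73-fold higher in mdx than in mdx_IL5Tg (log2 2.24, SE 0.42, edgeR adjusted p = 0.0049) and 19.2-fold higher in mdx than in IL5Tg (log2 4.26, SE 0.48, edgeR adjusted p = 0.00024). Both mdx comparisons passed the test in every alternative run, with log2 changes of 1.47 and 3.54 when S4 was left out. The first call was lost without S7, S8, S9, S1 or S2 (edgeR adjusted p from 0.064 to 0.12) and in limma voom (adjusted p = 0.12).

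Macrophages are the cells in which FcγRI is best known, and many but not all of their markers rose in the comparisons where Fcgr1 did. All 15 macrophage markers were tested, and 6 were higher in mdx_IL5Tg than in IL5Tg, 12 in mdx than in mdx_IL5Tg and 13 in mdx than in IL5Tg. Over all genes tested the shares that were higher were 4.35%, 11.5% and 11.8%. The first of the marker counts was 0 without S7 or S1, 2 without S8 or S2, 3 without S9 and 11 without S3. The second was 6 without S1 and 4 without S4. Lyve1 and Mertk of the list were at -0.86 and -0.05 (log2) in mdx_IL5Tg against IL5Tg, neither of them called. The rise was not particular to macrophage markers. Of 9 dendritic cell markers tested, 5, 2 and 5 were higher in the same comparisons, and 0, 1 and 0 lower. With single libraries left out, the first 2 of these higher counts fell to 2 and 0 at the lowest. The sum of the complement genes C1qa, C1qb and C1qc, which macrophages express strongly, was 2.46, 1.20 and 3.88 CPM in IL5Tg, 20.3, 29.7 and 4.83 CPM in mdx_IL5Tg, and 117, 87.5 and 57.3 CPM in mdx. Fcgr1 per count of these 3 genes, a ratio added after the values were seen, was 0.260, 0.378 and 0.183 in IL5Tg, 0.144, 0.0813 and 0.411 in mdx_IL5Tg, and 0.175, 0.0685 and 0.145 in mdx. In that ratio the IL5Tg libraries lay above those of mdx without overlap, and mdx_IL5Tg overlapped with both. The part of macrophage RNA in the Fcgr1 levels was not tested.

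**Figure D3:**
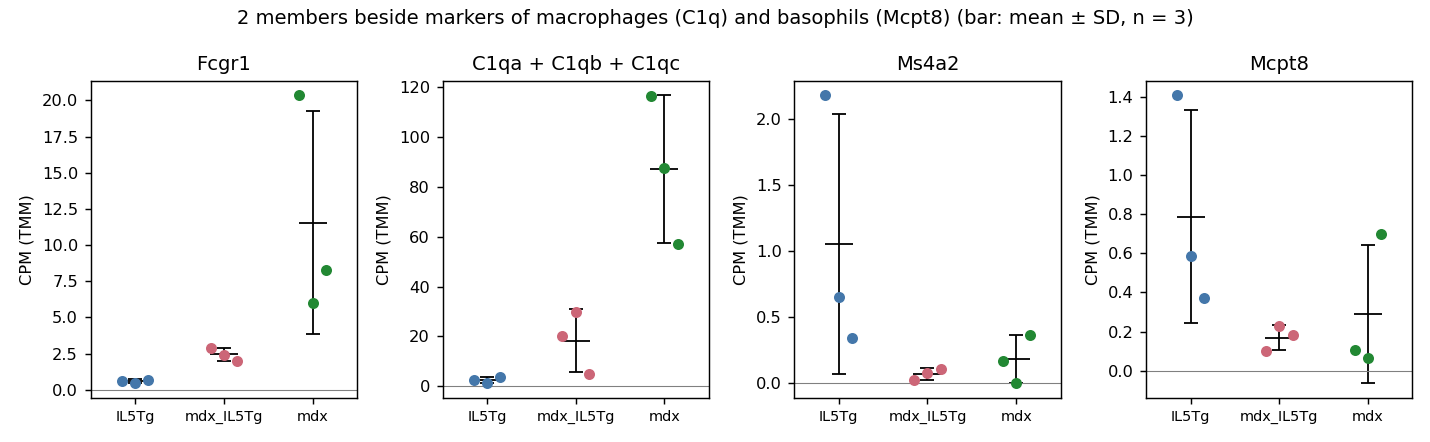
Fcgr1 beside the summed C1q genes, and Ms4a2 beside the basophil protease gene Mcpt8, in CPM (vertical axes, linear) for the 3 libraries of each group, with bars for the mean and SD. Fcgr1 and C1q are both highest in mdx library S4 (20.4 and 117 CPM), and Ms4a2 and Mcpt8 in IL5Tg library S7 (2.18 and 1.41 CPM). Markers of other cells that are not drawn, such as Prg2 of eosinophils, were also highest in S7.

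Fcgr2b, the inhibitory receptor, was highest in IL5Tg, the group in which Fcgr1 was lowest. It was at 196, 255 and 221 CPM in IL5Tg, at 142, 155 and 153 CPM in mdx_IL5Tg, and at 150, 104 and 164 CPM in mdx. All 3 IL5Tg libraries were above the other 6, and the groups with dystrophy overlapped. Fcgr2b fell by 0.69 on the log2 scale in mdx against IL5Tg (SE 0.17, edgeR adjusted p = 0.02), a call that was lost with library totals alone (-0.57, edgeR adjusted p = 0.059). The difference of mdx_IL5Tg from IL5Tg was -0.58 (SE 0.17, edgeR adjusted p = 0.067), and DESeq2 called it (-0.58, adjusted p = 0.03), as did the edgeR test without S5 (-0.57, edgeR adjusted p = 0.016). That of mdx from mdx_IL5Tg was -0.11 (SE 0.17, edgeR adjusted p = 0.69; interval of 2 SE from -0.45 to 0.24).

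Within each library, the balance of Fcgr3 to Fcgr2b separated the 3 groups. There were 2.08, 1.73 and 2.11 Fcgr3 counts per Fcgr2b count in IL5Tg, 6.91, 5.995 and 5.41 in mdx_IL5Tg, and 3.95, 3.07 and 3.56 in mdx. No group overlapped with another, and this ratio needs no scaling between libraries. The ratio does depend on how reads shared by the 2 genes were divided, and that part was not tested. Its log2 averaged 0.97 ± 0.16 (SD, n = 3) for IL5Tg, 2.60 ± 0.18 for mdx_IL5Tg and 1.81 ± 0.18 for mdx, given as a description with no test. Fcer1g to Fcgr2b also separated the groups, at -1.12 ± 0.12, -0.20 ± 0.09 and -0.56 ± 0.13. For Fcgr4 to Fcgr2b the values were -6.27 ± 0.08, -4.50 ± 0.11 and -5.41 ± 0.55, again without overlap. Fcgr1 to Fcgr2b had a different order, -8.56 ± 0.50 in IL5Tg, -5.96 ± 0.34 in mdx_IL5Tg and -3.77 ± 0.77 in mdx. All these ratios share Fcgr2b, which was itself highest in IL5Tg, so they are not independent of one another. In CPM, Fcgr3, Fcgr4 and Fcer1g each overlapped between mdx and IL5Tg and were not called there (log2 0.19, 0.27 and -0.13). How many other pairs of genes separate the groups was not counted.

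**Figure D4:**
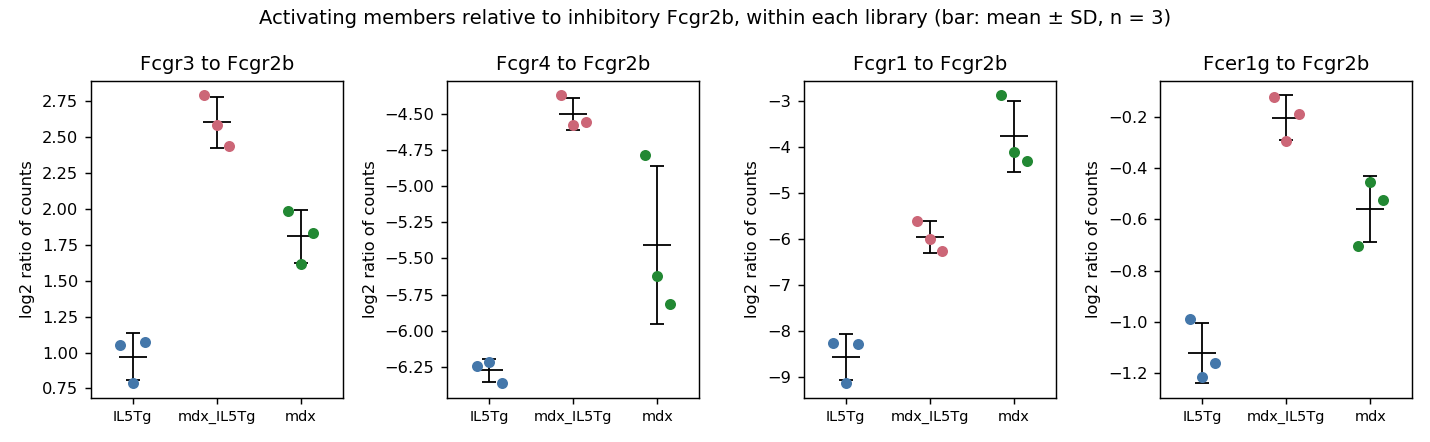
Log2 ratio of the counts of 4 activating members to those of inhibitory Fcgr2b in each library (vertical axes, linear in log2), with bars for the mean and SD of the 3 libraries of each group. Fcgr3 to Fcgr2b is 0.97 in IL5Tg, 2.60 in mdx_IL5Tg and 1.81 in mdx. The libraries of the 3 groups do not overlap in any of the 4 panels, which share Fcgr2b and are not independent.

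When the rows of Fcgr2b and Fcgr3 were replaced by their sum, which does not depend on how shared reads were divided, the sum was lower in mdx than in mdx_IL5Tg (log2 -0.74, edgeR adjusted p = 0.026; 0.056 without S1). The difference of mdx_IL5Tg from IL5Tg was 0.68 and did not pass the edgeR test (adjusted p = 0.063). It did so without S3 (0.79, edgeR adjusted p = 0.043) or S5 (0.69, edgeR adjusted p = 0.0077). Between mdx and IL5Tg the sum differed by -0.05 (edgeR adjusted p = 0.87).

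The chains of the IgE receptor other than the γ chain had few counts. Ms4a2, the β chain, had 68, 20 and 9 counts in IL5Tg, 1, 3 and 4 in mdx_IL5Tg, and 8, 0 and 15 in mdx. In CPM that is 2.18, 0.649 and 0.335, then 0.0198, 0.0755 and 0.104, then 0.167, 0 and 0.362. The IL5Tg libraries were above those of mdx_IL5Tg, with S7 far above the rest, and the mdx range overlapped with both. Ms4a2 fell by 3.98 on the log2 scale in mdx_IL5Tg against IL5Tg (SE 1.06, edgeR adjusted p = 0.048). The call was lost without S7, where the change was -2.84 (edgeR adjusted p = 0.18), and without S8, S9, S1, S2, S3, S4 or S6 (edgeR adjusted p from 0.051 to 0.2). The difference of mdx from IL5Tg was -2.51 (SE 0.95, edgeR adjusted p = 0.082) and that of mdx from mdx_IL5Tg 1.47 (SE 1.11, edgeR adjusted p = 0.37). Fcer1a, the IgE-binding α chain, had 3, 1 and 2 counts in IL5Tg, 0, 1 and 5 in mdx_IL5Tg, and 4, 0 and 1 in mdx. These sums of 6, 6 and 5 counts allow no comparison, since an observed 0 allows a level of up to 3 counts, which is 0.0514 to 0.112 CPM at these depths.

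Among 13 markers of mast cells and basophils, 11 of them tested, Mcpt8, Prss34 and Gata2 were highest in the same library as Ms4a2, IL5Tg S7. Mcpt8, a basophil protease, was at 1.41, 0.584 and 0.373 CPM in IL5Tg, 0.0988, 0.227 and 0.183 CPM in mdx_IL5Tg, and 0.105, 0.0669 and 0.699 CPM in mdx. Prss34, another basophil protease, was at 2.43, 0.649 and 0.410 CPM in IL5Tg and between 0.0790 and 1.11 CPM in the other 6 libraries. Mcpt4, Cma1, Tpsb2, Tpsab1, Mrgprb2 and Cd200r3 of the same list were instead highest in mdx library S4. Cpa3 was close in both, at 4.17 CPM in S4 and 4.06 CPM in S7. Cma1, the mast cell chymase gene, was at 0.288, 0.227 and 0.0373 CPM in IL5Tg, 0.395, 0.504 and 0.235 CPM in mdx_IL5Tg, and 5.97, 3.38 and 0.579 CPM in mdx. In mdx against IL5Tg 4 of the 11 were higher (Cma1, Mcpt4, Tpsb2 and Kit, log2 4.12, 3.50, 3.00 and 0.74) and Gata2 was lower (-1.80). Against mdx_IL5Tg Cma1, Tpsb2 and Mcpt4 were higher in mdx (3.12, 3.28 and 3.45), and Gata2 and Hdc lower (-1.75 and -0.60). Of all genes tested, 11.8% were higher and 8.96% lower in mdx than in IL5Tg. Against mdx_IL5Tg the shares were 11.5% and 10.1%. The 4 higher were 1 without S8, S9 or S4 and 2 without S7, and the 3 higher were 0 without S4, 1 without S1 or S3 and 5 without S5. The 1 lower against IL5Tg was 2 without S5 or S6, and the 2 lower against mdx_IL5Tg were 1 without S1, S2, S3, S4 or S6. The sum of the 13 was 837 to 979 CPM in IL5Tg, 933 to 1023 in mdx_IL5Tg and 540 to 807 in mdx, most of it from Hdc (750 to 904, 833 to 931 and 448 to 751 CPM), and Mrgprb2 was at 0 in both groups with the transgene. S7 was also the highest library for the eosinophil markers Prg2, Epx, Ear1, Ear2 and Ear6 (Prg2 at 6997 CPM), but not for the other markers of that list. The neutrophil, B and plasma cell and NK cell sums were highest there too, at 1429, 41.7 and 7.07 CPM. The macrophage, monocyte, dendritic cell and mast cell and basophil sums were highest in other libraries. The part of mast cells and basophils in the Ms4a2 counts was not tested.

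Fcgr2b, Fcgr4, Fcgr3 and Fcer1g lie together on chromosome 1, at chr1:170958617-170976547, chr1:171018920-171029761, chr1:171051174-171064935 and chr1:171229572-171234365 (GENCODE M21, GRCm38; Fcgr4 on the plus strand, the others on the minus strand). Fcer1a lies further along at chr1:173221284-173227214, Fcgr1 at chr3:96282909-96293969 and Ms4a2 at chr19:11615523-11623719, all on the minus strand. The neighbours Fcgr2b, Fcgr4 and Fcgr3 thus had changes of opposite sign in mdx_IL5Tg against IL5Tg (-0.58, 1.18 and 1.06), of which the last passed the test.

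Likeness was measured by Pearson's r of log2 CPM over the 9 libraries. It is a description, as the libraries fall into groups and differ in depth. The genes whose level followed each member most closely were sought among 11023 genes with a mean of at least 1 CPM. For Fcgr1 they were Cd14 (r = 0.984), the co-receptor for bacterial lipopolysaccharide and one of the macrophage markers above, Actn3 (0.983), a muscle fibre protein, and Slc15a3 (0.981), a lysosomal peptide transporter. Cd14 averaged 16.6, 40.1 and 108 CPM in IL5Tg, mdx_IL5Tg and mdx. For Fcgr3 they were Pabpc1 (0.985), Dcakd (0.983) and Lamp1 (0.976), a lysosomal membrane protein at 323, 504 and 346 CPM. For Fcgr2b they were Ick (0.988), the circadian factor gene Clock (0.985), at 57.9, 28.8 and 26.5 CPM, and Terf1 (0.976). For Fcer1g they were Nedd9 (0.986), Tmem134 (0.977) and Hnrnpd (0.964), and for Fcgr4 Gid8 (0.969), Fam210b (0.951) and Abcg1 (0.944).

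Other Fc receptors and related genes were low, and most could not be tested. Of 12 listed, 5 passed the filter (Fcgrt, Trim21, Fcrla, Fcrlb and Fcrls). Fcrls, an Fc receptor-like gene known from macrophages and microglia, was at 0.768, 0.941 and 1.04 CPM in IL5Tg, 4.15, 4.08 and 2.19 CPM in mdx_IL5Tg, and 15.01, 11.5 and 8.22 CPM in mdx. Its 3 groups did not overlap, in the same order as those of Fcgr1. It was called in all 3 comparisons (log2 1.92, 1.73 and 3.65, edgeR adjusted p = 0.013, 0.0039 and 8.5e-05); the first call was lost without S7 or S1 (edgeR adjusted p up to 0.063). Fcgrt, the neonatal Fc receptor that recycles IgG, was higher in mdx than in mdx_IL5Tg (log2 1.48, edgeR adjusted p = 0.029) and than in IL5Tg (log2 2.19, edgeR adjusted p = 0.0056). The call against mdx_IL5Tg was lost without S7, S9, S1, S3, S4 or S5 (edgeR adjusted p up to 0.11). Its difference between mdx_IL5Tg and IL5Tg was 0.71 (edgeR adjusted p = 0.29). Of genes named after their values were seen, the low-affinity IgE receptor gene Fcer2a had 3 counts in mdx_IL5Tg and 2 in mdx, and 0 in IL5Tg.

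Of 8 gene names listed as other receptors that signal through Fcer1g, 7 were found and 4 passed the filter. Clec4d, a C-type lectin for mycobacterial glycolipids, was at 26.3, 38.6 and 33.6 CPM in IL5Tg, 39.6, 46.8 and 49.8 CPM in mdx_IL5Tg, and 96.2, 65.6 and 70.2 CPM in mdx. It was higher in mdx than in mdx_IL5Tg (log2 0.77, edgeR adjusted p = 0.016) and than in IL5Tg (log2 1.24, edgeR adjusted p = 0.0015), and it was the only one of them that edgeR called with all 9 libraries. The call against mdx_IL5Tg was lost without S1 or S4 (edgeR adjusted p up to 0.11). Between mdx_IL5Tg and IL5Tg none was called by edgeR, DESeq2 or voom, and 1 was higher at an unadjusted p under 0.05.

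Downstream of the ITAM, 24 of 24 kinases and adaptors were tested. Against IL5Tg, 5 were higher in mdx_IL5Tg, where 4.35% of all genes tested were higher. The median log2 change was 0.31 beside -0.05 over all genes. The smallest p-values belonged to Rac2, a GTPase of the oxidative burst, Bcl10, of the CARD9 signalling complex, and the adaptor gene Grb2 (log2 0.65, 0.57 and 0.51, edgeR adjusted p = 0.03, 0.036 and 0.038). All 3 calls were lost without S7, S8, S9, S1 or S2. The count was 0 without S7, S9, S1 or S2, 1 without S8 and 9 without S5, and 0 with library totals alone. In mdx against mdx_IL5Tg 6 were higher and 8 lower, beside 11.5% and 10.1% of all genes, with a median of -0.25 beside 0.13. Lyn, the Src family kinase that starts the signal, was at 635, 894 and 870 CPM in IL5Tg, 999, 993 and 1195 CPM in mdx_IL5Tg, and 511, 439 and 524 CPM in mdx. It fell by 1.11 on the log2 scale in mdx against mdx_IL5Tg (edgeR adjusted p = 0.0014), Rac2 fell by 0.76 (edgeR adjusted p = 0.005), and Lat2, a membrane adaptor, rose by 1.37 (edgeR adjusted p = 0.0054). With library totals alone the split was 8 higher and 1 lower. The higher count was between 1 (without S1) and 5 when single libraries were left out, at 2 without S3 or S4 and 3 without S2 or S6, and the lower count was 5 without S1. In mdx against IL5Tg 7 were higher and 3 lower, beside 11.8% and 8.96% of all genes, with a median of 0.16 beside 0.01. The higher count was 4 without S4 and 3 without S9. Fgr, a Src family kinase, rose by 1.09, and Pik3cg, a PI3-kinase catalytic subunit, by 1.26 (edgeR adjusted p = 0.00044 and 0.00049), while Btk fell by 0.59 (edgeR adjusted p = 0.0048). Syk, named after its values were seen as the kinase the γ chain recruits, was at 1279 to 1777 CPM in IL5Tg, 2055 to 2317 in mdx_IL5Tg and 1614 to 2200 in mdx.

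On the inhibitory side, 13 of 13 enzymes and adaptors were tested. Csk, which restrains Src family kinases, was higher in mdx_IL5Tg than in IL5Tg (log2 0.94, edgeR adjusted p = 0.0061), the one gene of this list called there, and fell by 0.55 in mdx against mdx_IL5Tg (edgeR adjusted p = 0.016). Of all genes tested, 4.35% were higher in mdx_IL5Tg than in IL5Tg. In mdx against mdx_IL5Tg 3 of the list were higher and 2 lower, beside 11.5% and 10.1% of all genes. In mdx against IL5Tg 3 were higher, beside 11.8%. Pag1, the membrane adaptor that docks Csk, rose by 2.43 and 2.103 in these comparisons (edgeR adjusted p = 0.0004 and 0.00083). Inppl1, the SHIP-2 phosphatase, rose by 1.38 and 2.04 (edgeR adjusted p = 0.012 and 0.0018). Without S1, the calls of Csk and Inppl1 in mdx against mdx_IL5Tg were lost (edgeR adjusted p = 0.064 for Inppl1). Inpp5d, likewise named as the phosphatase that Fcgr2b recruits, was at 161 to 234 CPM in IL5Tg, 216 to 239 in mdx_IL5Tg and 227 to 252 in mdx. In mdx against mdx_IL5Tg 1 was higher and 0 lower without S1, and 1 was lower without S4 or S6, while without S3 or S5 2 were higher in mdx_IL5Tg than in IL5Tg. With library totals alone 7 were higher and 0 lower in the first mdx comparison, and 5 higher in the second.

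Of 15 gene names listed as other inhibitory receptors with an ITIM, 13 were found, and all 13 were tested. That each product holds an ITIM was taken from the list and not checked. This includes Lilr4b, which was among those lower in mdx than in IL5Tg (log2 -0.90, edgeR adjusted p = 0.031). None was called in mdx_IL5Tg against IL5Tg by edgeR, where 4 were higher and 2 lower at an unadjusted p under 0.05, DESeq2 called 3 and 2, and voom 1 and 1. Without S5 edgeR called 3 higher and 2 lower, and without S3 0 and 2. In mdx, 2 were higher and 3 lower than in mdx_IL5Tg, beside 11.5% and 10.1% of all genes tested. Against IL5Tg 3 were higher and 5 lower in mdx, beside 11.8% and 8.96%. Siglecf, the receptor used to sort these cells, fell by 1.73 and 1.17 (edgeR adjusted p = 7.2e-05 and 0.00079), and Clec12a, a C-type lectin, by 1.55 and 1.32 (edgeR adjusted p = 0.001 and 0.002). Cd72, an inhibitory receptor known from B cells, rose by 3.12 against mdx_IL5Tg (edgeR adjusted p = 0.0077), from 0.158 to 1.39 CPM. The first higher count was 1 without S9, S1, S3, S4 or S6, and against IL5Tg the counts were 2 and 2 without S8, 1 and 4 without S9, 2 and 3 without S4, and 3 and 3 without S5.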

How the data were processed

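RNA-seq of 9 libraries was used, 3 per group. Tools listed in the submitters' processing notes are RSEM 1.3.0, STAR 2.5.3, cutadapt 2.10 and limma, with mm10 as the build. The labels state neither strandedness nor read length. The deposited table holds RSEM expected counts per gene, as the authors made them, which were rounded to whole numbers (6.03% of values were not whole). Groups come from the titles and libraries from the column names.

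All genes were tested with edgeR 4.0.16 in R 4.3.3 (quasi-likelihood, robust, TMM factors, filterByExpr with a minimum count of 10, all 9 libraries, Benjamini-Hochberg, threshold 0.05). CPM used TMM-scaled totals, and RPKM also the summed exon length in GENCODE M21, which held 54079 of the gene IDs. DESeq2 1.42.0, limma 3.58.1 (voom) and other scalings and filters were alternatives. The fits were tested on simulated data.

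The members, lists and tests were chosen with earlier results of these data known. Named beside the 7 members are, per list and comparison, up to 3 genes with the smallest p, and the 3 genes most alike to each member with a mean of at least 1 CPM, predicted genes left out. Some further genes are marked as named after their values were seen. Other genes of the lists, most of them cell type markers, were also named after their values were seen and carry no mark. The shared-sequence windows, the motifs and the ratios to Fcer1g and C1q were also chosen after the values were seen. P-values set the differences between groups against the spread between these libraries.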

Additional observations from a re-analysis of the deposited data

How the results depend on the processing

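No paired analysis was possible because the table's columns carry S numbers that the labels do not tie to the replicate numbers of the titles. For the 6 tested members and the summed Fcgr2b and Fcgr3, values below are log2 changes unless called counts. In mdx_IL5Tg against IL5Tg, the 3 members called became 5 with DESeq2, with voom quality weights, without a filter and with only the groups compared. With library totals alone, 1 member (Fcgr1) was called in each mdx comparison, and the median of all genes moved from -0.05 to -0.27, from 0.13 to 0.46 and from 0.01 to 0.12 in the 3 comparisons.

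In mdx_IL5Tg against IL5Tg, calls were lost for Fcgr1 with voom (2.02) and quality weights (1.99), for Fcgr3 with library totals (0.85), and for Ms4a2 with voom (-3.68) and without S7 and S5 together (-2.88). Fcgr2b gained a call with DESeq2 (-0.58), quality weights (-0.59), library totals (-0.79), no filter (-0.57), only the groups compared (-0.58) and without S7 and S5 (-0.66). Fcgr4 gained one with DESeq2 (1.18), voom (1.19), quality weights (1.24), no filter (1.19), only the groups compared (1.18), without S7 and S5 (1.11) and without S3 (1.25), S4 (1.23) or S5 (1.19), and Fcer1g with quality weights (0.36). The sum gained one with DESeq2 (0.69), quality weights (0.68), no filter (0.69), only the groups compared (0.68) and without S7 and S5 (0.63).

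In mdx against mdx_IL5Tg, library totals ended the calls of Fcgr3 (-0.54), Fcer1g (-0.14) and the sum (-0.40), and Fcer1g also lost its call without a filter (-0.46), with at least 50 counts in 3 libraries (-0.42) and without S7 and S5 (-0.34). Fcgr4 gained one with DESeq2 (-0.96), voom (-0.97), quality weights (-0.85), no filter (-0.90) and without S4 (-1.47), S7 or S8 (-1.02 in both). The uncalled Fcgr2b difference turned positive with quality weights (0.0552), library totals (0.22), without S5 (0.0619) and without S7 and S5 (0.0613). In mdx against IL5Tg, Fcgr2b lost its call with library totals (-0.57), Ms4a2 gained one with DESeq2 (-2.58) and no filter (-2.48), and 3 uncalled differences turned sign: Fcer1g with quality weights (0.0228) and without S5 (0.0105), Fcgr4 without S4 (-0.24), and the sum with quality weights (0.0888), library totals (0.0695), without S5 (0.18) and without S7 and S5 (0.11). The cause was not tested.

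With single libraries left out, the members called numbered 0 to 5 in mdx_IL5Tg against IL5Tg, 2 to 4 in mdx against mdx_IL5Tg and 2 to 3 in mdx against IL5Tg. In mdx_IL5Tg against IL5Tg the changes ran from 1.91 to 2.21 for Fcgr1, -0.62 to -0.42 for Fcgr2b, 1.06 to 1.18 for Fcgr3, 1.15 to 1.38 for Fcgr4, 0.35 to 0.46 for Fcer1g, -4.39 to -2.84 for Ms4a2 and 0.67 to 0.79 for the sum. In mdx against mdx_IL5Tg they ran from 1.47 to 2.54, -0.34 to 0.0619, -1.10 to -0.64, -1.47 to -0.66, -0.73 to -0.34, 0.42 to 1.98 and -0.97 to -0.52 in the same order. In mdx against IL5Tg they ran from 3.54 to 4.58, -0.87 to -0.51, 0.00766 to 0.43, -0.24 to 0.53, -0.33 to 0.0105, -3.50 to -1.49 and -0.23 to 0.18. With the longest transcript as the length, Fcgr2b was at 63.2, 42.3 and 39.3 RPKM and Fcgr3 at 325, 678 and 370 RPKM in IL5Tg, mdx_IL5Tg and mdx. Ms4a2 and Fcer1a are limited by depth.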
